A study of Homo sapiens with 4 samples.

Results

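MALAT1 and NEAT1, long non-coding RNAs that stay in the nucleus, were followed across 4 expression arrays of the established glioblastoma line LN-229, which is of human origin. The members were taken from the platform annotation as the probe sets that name MALAT1 or NEAT1 as their only gene. A probe set is a group of short probes for 1 transcript. This gave 12 probe sets of 54613, all of them for MALAT1, and 0 for NEAT1. Another 9 probe sets name NEAT1 together with the microRNA gene MIR612. They are described beside the members under both names, because the annotation does not give them to NEAT1 alone.

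Both RNAs are found in bodies inside the nucleus. MALAT1 gathers in nuclear speckles, where splicing factors are stored and which form without it. Its 3′ end is made by cleavage by the tRNA-processing enzyme RNase P and is protected by a triple helix, so that it carries no ordinary poly(A) tail. NEAT1 is made as a short polyadenylated form and a long form, and the long form is the scaffold of paraspeckles, bodies that hold RNA-binding proteins and retained RNAs.

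The induced group was 2 cultures of LN-229 treated with doxycycline over 48 h, which turns on WIF1, an extracellular inhibitor that captures WNT ligands. The control group was 2 cultures of LN-229 without treatment. The replicates are biological according to the labels, which name neither clone nor vector. No array had doxycycline without WIF1, so the effect of the drug and that of WIF1 cannot be told apart. The values are log2 intensities, 1 per probe set and array, and the number of arrays limits their precision. Differences are induced minus control with 2 arrays a group, SE is the standard error of the limma fit, and p-values are limma's, adjusted over all 54613 probe sets by Benjamini-Hochberg with a threshold of 0.05.

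Array medians were 6.15 and 6.15 in the induced cells and 6.16 and 6.19 in the controls. The WIF1 probe set stood near the floor, at 2.93 and 3.03 in the induced cells and 2.98 and 2.90 in the controls, so it did not check the labels. Of 10 glioma and astrocyte markers 9 were not below the table's median level (6.16), and GFAP, the classical astrocyte filament protein, was below it at 5.66. That level was also reached by 4 of 4 neuronal, 2 of 4 leukocyte and 2 of 4 endothelial markers. It was reached by 1 of 3 epithelial and 1 of 3 oligodendrocyte markers too, so it does not single out the glioma lineage. Limma called 0 probe sets in the whole table (0% of 54613), while 2876 were lower and 2593 higher (10% together) at an unadjusted p under 0.05.

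The annotation places both genes next to each other on chromosome 11 (RefSeq, GRCh38.p14). NEAT1 spans chr11:65422798-65445540 (22743 bases), and MIR612 lies inside it at chr11:65444458-65444557, 983 bases from the upper end. MALAT1 follows 52197 bases further on, at chr11:65497738-65506516 (8779 bases). The antisense gene TALAM1, at chr11:65499312-65507432, overlaps 7205 bases of MALAT1. No probe set is annotated to TALAM1, and whether any of the 12 reads it was not tested. RefSeq gives MALAT1 several transcripts and the table has 2 starts, 1307 bases apart. Both start regions are shown because the probe sets of this gene did not move together, and the capitals mark the first 50 bases of the transcript, which follow 250 bases of upstream sequence. No file used here places a probe set within either transcript.
MALAT1 first start, chr11:65497488-65497787, plus strand: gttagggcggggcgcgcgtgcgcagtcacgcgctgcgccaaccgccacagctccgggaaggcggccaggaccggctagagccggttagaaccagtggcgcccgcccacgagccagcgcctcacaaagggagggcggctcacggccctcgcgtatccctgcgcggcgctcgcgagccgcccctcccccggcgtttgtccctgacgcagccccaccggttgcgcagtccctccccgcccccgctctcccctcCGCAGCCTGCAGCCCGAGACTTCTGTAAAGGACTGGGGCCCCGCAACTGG
MALAT1 second start, chr11:65498795-65499094, plus strand: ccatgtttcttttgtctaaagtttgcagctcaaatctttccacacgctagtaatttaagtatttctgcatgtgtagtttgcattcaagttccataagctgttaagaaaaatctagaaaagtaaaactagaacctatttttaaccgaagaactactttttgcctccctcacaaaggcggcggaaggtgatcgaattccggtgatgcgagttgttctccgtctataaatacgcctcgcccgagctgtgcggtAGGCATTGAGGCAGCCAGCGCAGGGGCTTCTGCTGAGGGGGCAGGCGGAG
G and C made up 73.7% of the first region and 46% of the second.

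The MALAT1 probe sets gave different answers to the same question. By sign, 9 of 12 were lower and 3 higher in induced cells, and the median difference over them was -0.14, against -0.01 over all probe sets. None of the 12 passed the test (adjusted p from 0.472 to 0.884). At an unadjusted p under 0.05, 2 of 12 were lower and 2 of 12 higher, where 5.27% of all probe sets were lower and 4.75% higher. Both induced arrays lay below both controls in 2 of 12 and above both in 2 of 12, against 23.5% and 17.9% of all probe sets (41.4% either way). These shares over 12 probe sets of 1 transcript are descriptions, since the probe sets share their RNA and are not replicates.

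Each probe set's own probes also set its signal, so a brighter probe set does not show more RNA than a dimmer one. Brightness served here to identify probe sets, to choose 1 per gene and to set the median level as a cut-off. All 12 had a mean above the median of the table, from 7.70 to 12.88 on the log2 scale. The array names mark how well a probe set can tell its target apart. Probe sets ending in _at were designed for 1 transcript, those ending in _s_at for sequence shared between transcripts, and those ending in _x_at include probes that also match other sequences. Of the 12, 1 ends in _at, 4 in _s_at and 7 in _x_at. Differences ran from -1.06 to 0.12 among the _x_at sets and from -0.12 to 0.24 among the _s_at sets, while the _at set stood at -1.05.

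A pair of probe sets was lower in both induced arrays. The probe set 224559_at had log2 intensities of 10.03 and 9.61 in induced cells, against 10.54 and 11.21 in controls. The probe set 228582_x_at had 7.65 and 7.14 in induced cells, against 8.16 and 8.75 in controls. In both, the second induced array was lowest, the second control highest, and the groups did not overlap. The difference was -1.05 for 224559_at (SE 0.23, adjusted p = 0.472), which is 48.3% of the control signal, and -1.06 for 228582_x_at (SE 0.23, adjusted p = 0.472), which is 47.9%. Neither passed the test. The gap within a group was 0.42 in induced cells and 0.67 in controls for 224559_at, and the nearest induced and control arrays were 0.51 apart. For 228582_x_at those gaps were 0.51 and 0.59, with the nearest arrays of the groups also 0.51 apart. After each profile was centred on its own mean, the pair differed by a root mean square of 0.044 over the 4 arrays, so they followed each other closely.

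In size these were the 2 most negative differences of the whole table, and no other probe set reached -1 (0.00366% of all probe sets, 2 of 54613). The next were 1557267_s_at of GEN1 at -0.87 and 211959_at of IGFBP5, a binding protein of insulin-like growth factors, at -0.81. The arrays of this pair were also spread widely within groups. The within-group SD of 224559_at was 0.40 and that of 228582_x_at 0.39, against a median of 0.081 over all probe sets. With any 1 array left out the difference ran from -1.39 to -0.72 for 224559_at and from -1.36 to -0.77 for 228582_x_at. The sign could not change, since the groups do not overlap.

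**Figure D1:**
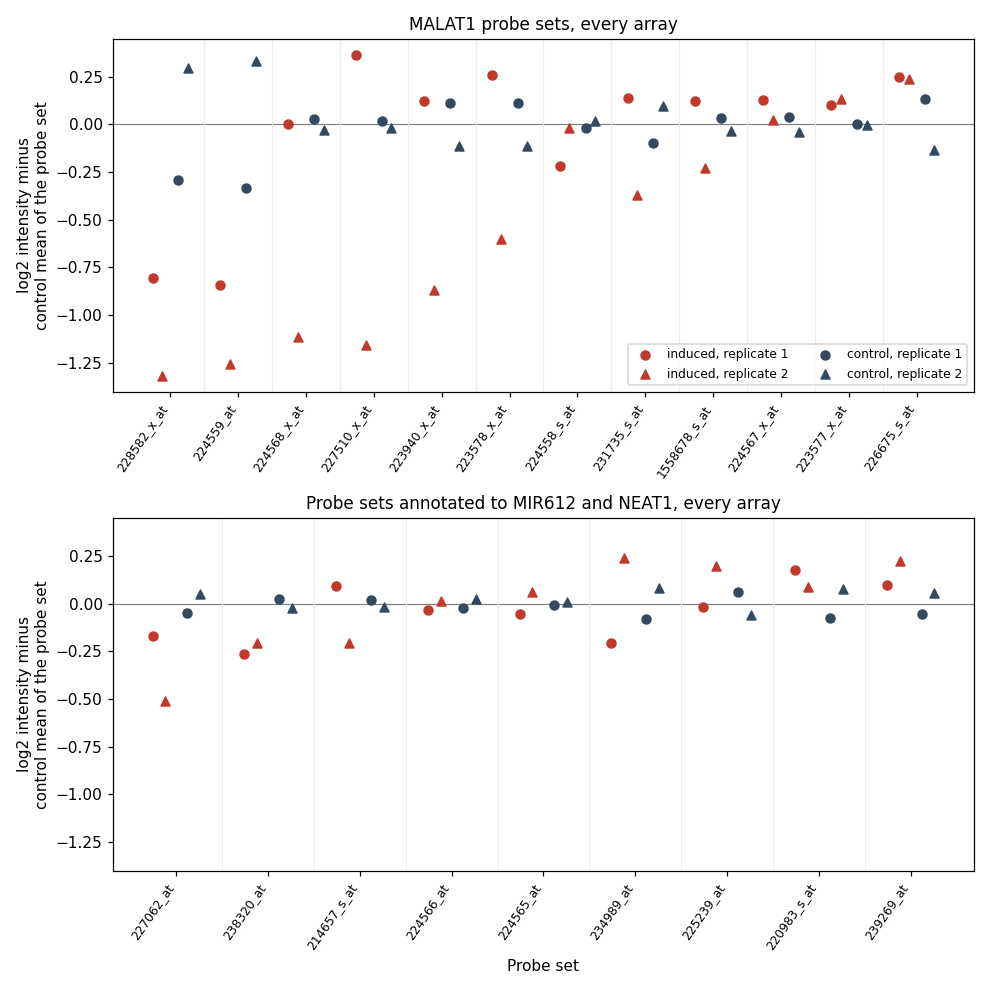
Log2 intensity of each probe set in each array after subtracting that probe set's control mean (y axis), for the 12 MALAT1 probe sets and the 9 annotated to both MIR612 and NEAT1 (x axis), ordered by difference. Red points are induced and dark points control arrays, with circles for replicate 1 and triangles for replicate 2. In 224559_at and 228582_x_at both induced arrays lie below both controls, and in the next 4 MALAT1 probe sets only the second induced array lies far below.

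A group of 4 probe sets, all ending in _x_at, was low in the second induced array alone. The probe set 227510_x_at had 8.27 and 6.74 in induced cells, against 7.92 and 7.88 in controls. For 224568_x_at the values were 11.35 and 10.23 in induced cells, against 11.37 and 11.31 in controls. For 223940_x_at they were 11.92 and 10.93 in induced cells, against 11.91 and 11.68 in controls. In these 3 the first induced array stood among the controls or above them. The probe set 223578_x_at had 10.39 and 9.53 in induced cells, against 10.25 and 10.02 in controls, with the first induced array highest of the 4. Group differences were -0.40 for 227510_x_at, -0.56 for 224568_x_at, -0.37 for 223940_x_at and -0.17 for 223578_x_at, with SE from 0.25 to 0.43 and adjusted p from 0.578 to 0.840. The groups overlapped in all 4.

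The second induced array decided these 4 values. Without it the difference was 0.36 for 227510_x_at, 0.00 for 224568_x_at, 0.13 for 223940_x_at and 0.26 for 223578_x_at. Without the first induced array it was -1.16, -1.12, -0.87 and -0.60 in the same probe sets. That array also stood apart elsewhere: 102 probe sets (0.187%) were at least 0.8 lower in it than in the first induced array and 8 at least 0.8 higher, while the controls differed by that much in 11 probe sets each way. For gaps of at least 0.5 the counts were less one-sided, at 462 lower and 272 higher. The second control was lower than the first by that much in 235 probe sets and higher in 270. These 4 MALAT1 probe sets were among the 102, and 227510_x_at had the seventh widest gap of the table. The 3′ minus 5′ difference of the ACTB control, a measure of RNA integrity and labelling, was 0.033 and 0.11 in induced cells, against -0.036 and 0.021 in controls. For the spiked-in dap control it was 2.66 and 2.93 in induced cells, against 2.59 and 2.69 in controls. For GAPDH it was -0.043 and -0.047 in induced cells, against -0.067 and -0.069 in controls. The ACTB and dap measures were highest in the second induced array and that of GAPDH in the first. Their part in the MALAT1 values was not tested.

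The other 6 probe sets had differences from -0.12 to 0.24. The brightest MALAT1 probe set, 1558678_s_at, had 13.02 and 12.67 in induced cells, against 12.94 and 12.87 in controls. Its difference was -0.05 (SE 0.10, adjusted p = 0.884, 95% interval from -0.31 to 0.20), and it was 0.12 without the second induced array and -0.23 without the first. The induced arrays enclosed both controls, with the second lowest of the 4. The next brightest, 224567_x_at, had 12.70 and 12.59 in induced cells, against 12.61 and 12.54 in controls, a difference of 0.07 (SE 0.046) with overlapping groups. The probe set 224558_s_at had 9.74 and 9.94 in induced cells, against 9.93 and 9.97 in controls. For 231735_s_at the values were 9.52 and 9.01 in induced cells, against 9.28 and 9.48 in controls. Both had overlapping groups and differences of -0.12 and -0.11, and that of 231735_s_at was 0.14 without the second induced array and -0.37 without the first. In 231735_s_at, too, the second induced array was the lowest of the 4.

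The remaining pair was higher in both induced arrays, by small amounts. The probe set 226675_s_at had 10.79 and 10.77 in induced cells, against 10.67 and 10.40 in controls, a difference of 0.24 (SE 0.083, adjusted p = 0.472). For 223577_x_at the values were 9.47 and 9.50 in induced cells, against 9.37 and 9.36 in controls, a difference of 0.12 (SE 0.045, adjusted p = 0.483). Neither passed the test. With any 1 array left out the difference ran from 0.11 to 0.38 for 226675_s_at and from 0.10 to 0.13 for 223577_x_at. Here, too, the sign could not change, since the groups do not overlap.

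**Figure D2:**
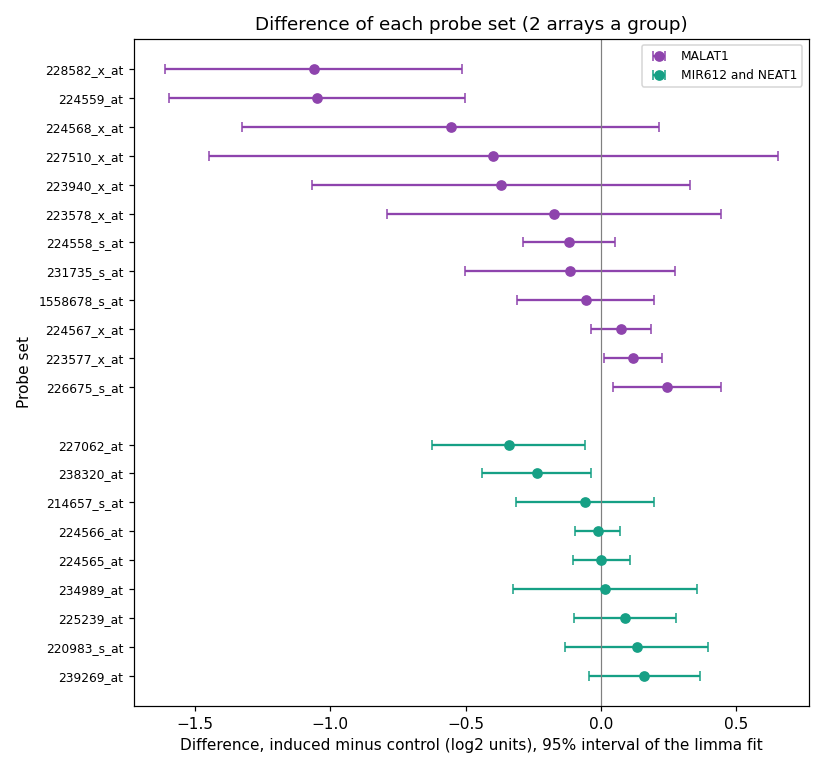
Difference of each probe set, induced minus control in log2 units (x axis), with the 95% interval of the limma fit as bars, for 12 MALAT1 probe sets (purple) and 9 annotated to MIR612 and NEAT1 (green). MALAT1 differences run from -1.06 to 0.24, and those of the 9 others from -0.34 to 0.16. The MALAT1 intervals are wide for some probe sets and narrow for others.

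The disagreement within MALAT1 could be set beside other genes with many probe sets. Among 1335 genes with at least 5 probe sets of their own, the range of differences over the probe sets was widest for MALAT1, at 1.31 log2 units, against a median range of 0.31 and a 95th percentile of 0.59. EPOR, the erythropoietin receptor, came next at 1.23 over 5 probe sets, and MSI2, an RNA-binding protein, at 0.97 over 10. A range grows with the number of probe sets, which was 12 for MALAT1 and at most 20 for any gene. The median within-group SD over the probe sets of a gene was also highest for MALAT1, at 0.33, against 0.084 in the middle gene of the 1335. Of the 12 MALAT1 probe sets 7 lay above the 95th percentile of within-group SD of all probe sets (0.23). These ranks describe these 4 arrays, and no test was made on them.

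Relative to 1558678_s_at on the same array, the signal of 224559_at was lower in both induced arrays than in either control, and the induced minus control difference of this log2 ratio was -0.995. For 228582_x_at the same ratio was also lower in both induced arrays, with a difference of -1.01. The ratio of 226675_s_at to 1558678_s_at was higher in both induced arrays, with a difference of 0.30. An exact permutation test over the arrays gave p = 0.333 for each (2-sided), which is the smallest p that 2 arrays against 2 allow. These probe sets were chosen for their values, so the result is a description. Other MALAT1 probe sets, set against 1558678_s_at in the same way, gave this p or a larger one.

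Averaged over its 12 probe sets, MALAT1 was at 10.40 and 9.89 in induced cells, against 10.41 and 10.46 in controls. Both induced arrays were below both controls, the first narrowly and the second clearly. The average joins unlike probe sets: the first induced array was -0.84 from the control mean in 224559_at and -0.81 in 228582_x_at, against 0.36 in 227510_x_at. The difference of this average was -0.29 (adjusted p = 0.538 in a fit with 1 average per gene, where 9 genes were called). The median over the 12 probe sets was 0.12 without the second induced array and -0.49 without the first.

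**Figure D3:**
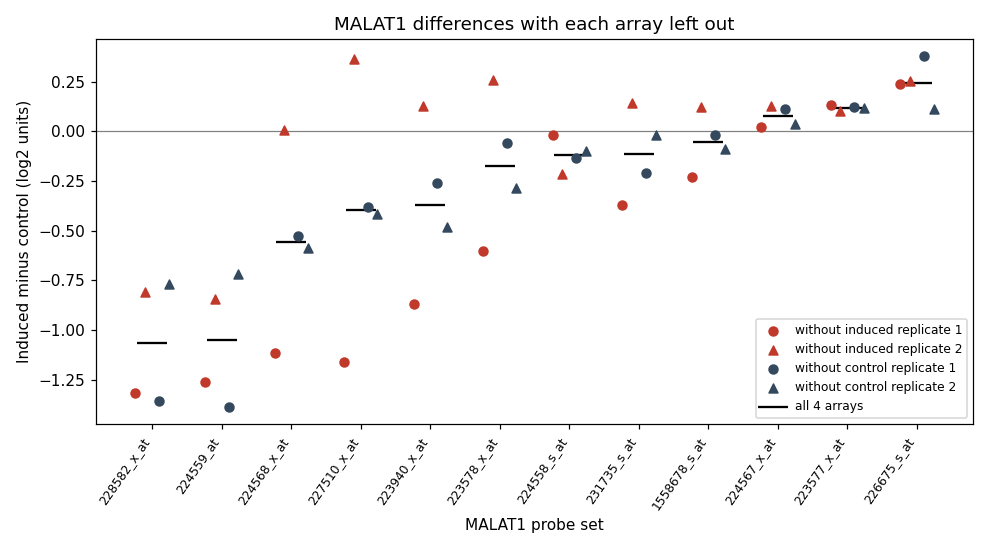
MALAT1 differences (induced minus control, log2 units, y axis) for each probe set (x axis) with all 4 arrays (black bars) and with each array left out (red for an induced, dark for a control array). In 4 probe sets the value moves from between -1.16 and -0.60 without the first induced array to between 0.00 and 0.36 without the second, while 224559_at and 228582_x_at stay below -0.7 throughout.

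The 9 probe sets annotated to MIR612 and NEAT1 lay closer together. Their median difference was 0.00, with 4 lower and 5 higher by sign, and 0 of 9 passed the limma test (adjusted p from 0.472 to 0.993). At an unadjusted p under 0.05, 2 were lower and 0 higher, against 5.27% and 4.75% of all probe sets. Both induced arrays lay below both controls in 2 of 9 and above both in 2 of 9, against 23.5% and 17.9% of all probe sets (41.4% either way). The brightest, 224566_at, had 12.27 and 12.32 in induced cells, against 12.28 and 12.33 in controls. Its difference was -0.01 (SE 0.034, 95% interval from -0.09 to 0.07), so a change of the size seen in 224559_at lies outside the interval. For 224565_at, the next brightest, the values were 12.05 and 12.16 in induced cells, against 12.09 and 12.11 in controls, a difference of 0.00 (SE 0.044). In both the groups overlapped.

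A pair of dimmer probe sets was lower in both induced arrays. The probe set 227062_at had 7.82 and 7.47 in induced cells, against 7.93 and 8.04 in controls, a difference of -0.34 (SE 0.12, adjusted p = 0.472). It was -0.17 without the second induced array. The probe set 238320_at had 6.02 and 6.08 in induced cells, against 6.31 and 6.26 in controls, a difference of -0.24 (SE 0.083, adjusted p = 0.474), and it lay close to the median of the table. Neither passed the test.

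The other 5 probe sets of this group differed by -0.06 to 0.16. The bright 225239_at had 10.93 and 11.15 in induced cells, against 11.01 and 10.89 in controls. For 234989_at the values were 9.72 and 10.17 in induced cells, against 9.85 and 10.01 in controls, so the induced arrays enclosed the controls. For 214657_s_at they were 7.58 and 7.28 in induced cells, against 7.51 and 7.47 in controls, again enclosing them. The dim 239269_at was above the controls in both induced arrays, with 6.90 and 7.03 in induced cells, against 6.75 and 6.86 in controls, by 0.16. The dimmest, 220983_s_at, had 4.78 and 4.69 in induced cells, against 4.52 and 4.68 in controls, which also put both induced arrays above the controls. Its listed target sequence is a transcript that RefSeq gives to SPRY4, an inhibitor of growth factor signalling, and not to NEAT1. Without it the median over the other 8 was also 0.00.

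Their range of differences was 0.50, and 159 of the 1335 genes with at least 5 probe sets had a wider one. Averaged over the 9 probe sets, the level was 8.68 and 8.70 in induced cells, against 8.69 and 8.74 in controls. The difference of that average was -0.03 (adjusted p = 0.861). No probe set of this group was 0.5 or more lower in the second than in the first induced array. Such a gap was seen in 6 of 12 MALAT1 probe sets and in 0.846% of all probe sets. Its absence is therefore not particular to this group. A test of MALAT1 against NEAT1 was not made, since probe sets are not replicates.

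Genes nearest in profile were listed for the brightest probe set of each group and for the one with the largest difference. Likeness was measured as the root mean square distance over the 4 arrays between profiles centred on their own means, among probe sets not below the table's median. Nearest to 228582_x_at were IGFBP5 at a distance of 0.26, the kinase gene TAOK1 at 0.31 and the linker histone gene H1-5 at 0.31. That probe set had the most negative difference of the table, so no other gene could come as near to it as 224559_at. IGFBP5 had 7.48 and 7.24 in induced cells, against 8.17 and 8.17 in controls. For the profile of the brightest MALAT1 probe set, GPAM, an acyltransferase of lipid synthesis, KATNIP and C21orf91 were at 0.0069 to 0.0085, and for 224566_at the cytochrome gene CYP2D6, UVSSA and DCAF15 were at 0.0036 to 0.0038. Nearest to 227062_at were FNDC3B, AGGF1 and the procollagen protease gene BMP1, at 0.018 to 0.024. With 4 arrays many flat profiles are alike.

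Genes around the locus differed in both directions by small amounts. Of 17 listed neighbours 16 were measured, 6 higher and 10 lower by sign, with a median difference of -0.02, against -0.0030 over 19775 genes. None passed the test (0% of genes did). At an unadjusted p under 0.05, 3 were lower and 0 higher, where 4.73% of genes were lower and 6.48% higher. POLA2, a subunit of DNA polymerase alpha, differed by -0.24 (SE 0.052), EHBP1L1 by -0.22 (SE 0.063) and FRMD8, a regulator of the protease that sheds growth factors, by -0.13 (SE 0.038). Between MALAT1 and EHBP1L1, the TGF-beta binding protein gene LTBP3 differed by -0.08, ZNRD2 by -0.01 and FAM89B by -0.03.

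**Figure D4:**
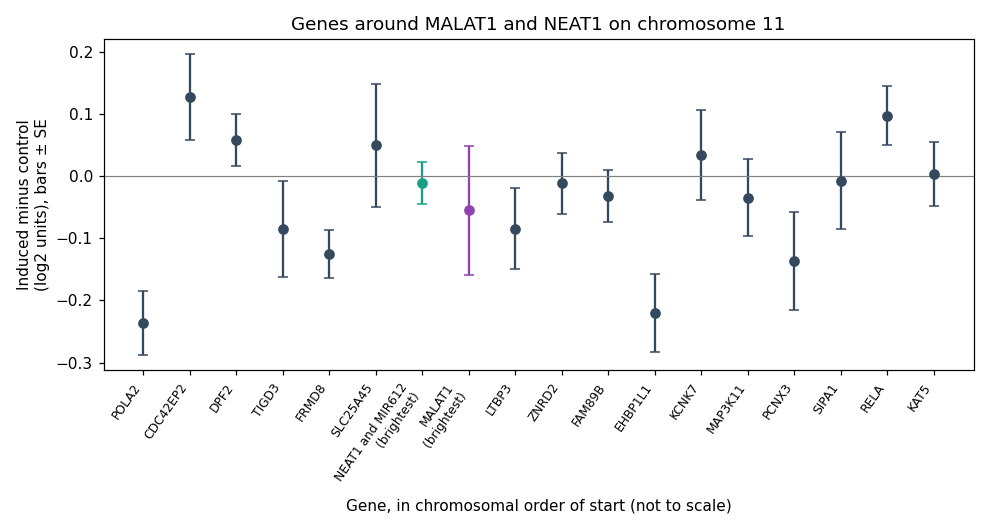
Difference of each measured gene around the locus, induced minus control in log2 units with bars of 1 SE (y axis), in chromosomal order (x axis, not to scale), with the brightest MALAT1 probe set in purple and the brightest of MIR612 and NEAT1 in green. POLA2 at -0.24 and EHBP1L1 at -0.22 lie lowest, and the brightest MALAT1 and NEAT1 probe sets are at -0.05 and -0.01.

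Protein partners of both RNAs were measured as lists, of which none had a member past the test. Among paraspeckle proteins, 33 of 35 were measured, with a median difference of 0.02, and an unadjusted p under 0.05 was reached by 3 in the higher and 1 in the lower direction, where 6.48% of all genes were higher and 4.73% lower. The core proteins that bind NEAT1 were close to 0, with NONO at -0.06 (SE 0.031), SFPQ at 0.04 (SE 0.033) and PSPC1 at 0.01 (SE 0.039). The cold-inducible RNA-binding protein RBM3 had 10.90 and 10.81 in induced cells, against 10.63 and 10.53 in controls, a difference of 0.28 (SE 0.052, adjusted p = 0.464). RBM7, of the complex that targets nuclear RNA for decay, differed by 0.23 and the splicing factor SRSF10 by -0.12.

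Among nuclear speckle proteins and partners of MALAT1, 26 of 28 were measured, with a median of 0.03. At an unadjusted p under 0.05, 7 were higher and 1 lower, where 6.48% of genes were higher and 4.73% lower. The neuronal splicing regulator PTBP2 had 9.19 and 9.24 in induced cells, against 8.88 and 8.82 in controls, a difference of 0.36 (SE 0.052, adjusted p = 0.386). CLK1, a kinase that phosphorylates splicing factors in speckles, differed by 0.29 (SE 0.060) and the splicing activator TRA2B by 0.13 (SE 0.035). The member that was lower was SRSF1, a splicing factor that MALAT1 binds, at -0.09 (SE 0.029). None passed the adjusted threshold.

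Factors that process the MALAT1 3′ end or modify the RNA had a median of -0.02 over 14 of 16 listed genes. At an unadjusted p under 0.05, 1 was lower and 0 higher, against 4.73% and 6.48% of all genes. The 3 with the smallest p were all lower by sign, of which only ELAC2 was under 0.05. ELAC2, the RNase Z that trims its small tRNA-like product, differed by -0.14 (SE 0.056), the RNase P subunit POP7 by -0.11 (SE 0.045) and METTL14, of the m6A methyltransferase, by -0.15 (SE 0.065). Other long non-coding RNAs had a median of -0.01 over 26 of 34 listed genes, and at an unadjusted p under 0.05 there were 0 lower and 3 higher, against 4.73% and 6.48% of all genes. The 3 were EPB41L4A-AS1 at 0.26 (SE 0.060), ZFAS1 at 0.17 (SE 0.030) and CRNDE at 0.15 (SE 0.053). The differences of this list ran from -0.16 to 0.26, and the MALAT1 probe set chosen in the same way, 1558678_s_at, was inside that range at -0.05.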

How the data were processed

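Total RNA of 4 LN-229 cultures was labelled as biotinylated cRNA and hybridised to 1 array each, per the labels' protocols. The authors deposited log2 intensities, 1 per probe set and array. Per the submitters' processing notes they used RMA and affy, whose versions are not given in the sources used here. This method removes background, equalises the arrays by quantile normalisation and summarises probes on the log2 scale, so a change shared by most genes is not seen. No scanner files were used here.

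After 62 control probe sets were left out, 54613 were fitted with limma 3.58.1 in R 4.3.3 (intensity trend, 2-sided, 6.27 degrees of freedom), and p-values were adjusted over all of them. Groups came from the sample titles. The fit was tested on simulated data. Members, lists and tests were chosen with earlier results of these data known. Symbols came from the platform annotation, 1 for 41091 probe sets, several for 1801 and none for 11721. For gene lists the probe set with the highest mean stood for a gene. Named genes were all members, 3 per list and 3 per profile by smallest p or distance, among probe sets at or above the median of all means. Other named genes were chosen after their values were seen: WIF1, GFAP, GEN1, EPOR, MSI2, SPRY4, NONO, SFPQ, PSPC1, SRSF1, LTBP3, ZNRD2, FAM89B and those of the closing section. The alternatives tried were a replicate block, other eBayes settings, filters, centring, cyclic loess, gene averages, a threshold of 0.1 and leaving out each array.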

Additional observations from a re-analysis of the deposited data

Results flagged for a closer look

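The array's control probes lie outside the comparison, and 3 measures taken from them were above both control arrays in each induced array. The 3′ minus 5′ difference was 0.077 higher in induced cells for ACTB and 0.023 higher for GAPDH. The 28S ribosomal RNA 3′ set was 0.37 higher, with 6.18 and 6.45 in induced cells, against 5.98 and 5.91 in controls. How these measures relate to the MALAT1 values was not tested.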

How the results depend on the processing

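No MALAT1 probe set and none annotated to MIR612 and NEAT1 passed its threshold under any alternative run. Over all probe sets the calls were 0 in the main setting, 2 with robust eBayes, 5 with arrays centred on their medians, 11 with cyclic loess, 2 at a threshold of 0.1 and 9 with probe sets averaged per gene. By replicate number the arrays were paired only weakly (correlation of deviations 0.056), and pairing in a smaller set of probe sets was not tested. With the replicate block 0 probe sets passed (smallest adjusted p = 0.587). Of all probe sets 4.75% were higher at an unadjusted p under 0.05 in the main setting, 3.65% with the block and 3.88% without the trend. For gene averages 5.1% were higher and 5.25% lower, and that of MALAT1 was neither (0 higher, 0 lower). MALAT1 probe sets higher at this unadjusted p numbered 2 in the main setting, 1 with the block and 0 without the trend. Leaving out each array gave 0 to 1 higher, 2 to 8 lower and a median difference from -0.49 to 0.12. Directions of the 12 MALAT1 probe sets held in 96 of 96 fits of the other settings. Only centring and cyclic loess change a difference, so fits of the remaining settings could not reverse one. With an array left out the directions held in 42 of 48. The 6 reversals came without the second induced array, and the ranges over the 4 arrays left out were -0.23 to 0.12 for 1558678_s_at, -0.60 to 0.26 for 223578_x_at, -0.87 to 0.13 for 223940_x_at, -1.12 to 0.0044 for 224568_x_at, -1.16 to 0.36 for 227510_x_at and -0.37 to 0.14 for 231735_s_at. Among the 9 others they were -0.21 to 0.091 for 214657_s_at, -0.055 to 0.060 for 224565_at, -0.036 to 0.014 for 224566_at, -0.017 to 0.20 for 225239_at and -0.21 to 0.24 for 234989_at, while 224565_at was at -0.022 with cyclic loess and 224566_at at 0.014 with centred arrays. The planned results for NEAT1 as the only symbol have no value, since no probe set qualified. The 9 probe sets with both symbols and the unadjusted counts were added after seeing the data. A fit without an array leaves 1 in its group, whose spread is then taken from the other group.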

Other observations

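Other genes shared the low signal in the second induced array. A probe set of SUPT16H, a histone chaperone subunit, had 9.97 and 8.13 in induced cells, against 9.99 and 9.53 in controls. One of OSBPL8, a lipid transfer protein, had 8.86 and 7.14 in induced cells, against 8.80 and 8.62 in controls. TPR, a nuclear pore protein, had a probe set with 8.25 and 6.92 in induced cells, against 8.16 and 8.11 in controls. In each the first induced array was within 0.1 of the higher control. These were picked from the 10 named probe sets at or above the median with the widest such gap; 227510_x_at of MALAT1 is another of the 10.

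The single probe set annotated to SPRY4 alone differed by -0.27 (SE 0.070, adjusted p = 0.472), while 220983_s_at, whose listed sequence is a SPRY4 transcript, differed by 0.13.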
